A study of Mus musculus with 2 samples.

Results

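Prostaglandin and leukotriene pathway genes were followed in single lung ILC2s (group 2 innate lymphoid cells) from WT mice and from mice lacking PAC1, a nuclear phosphatase encoded by Dusp2. The set comprised 10 genes of the 32285 listed in both libraries: the prostaglandin receptors Ptger1, Ptger2, Ptger4, Ptgir and Ptgdr2, the leukotriene receptors Cysltr1 and Ltb4r1, and the synthesis genes Alox5, Alox5ap and Hpgds. The genes are given by name. Barcodes were used where 500 or more genes were detected and no more than 10% of UMIs were mitochondrial, where a UMI (unique molecular identifier) marks 1 captured transcript. This left 8394 of 10866 WT barcodes and 7087 of 9495 Pac1-/- barcodes.

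The WT group was C57BL/6J mice with no altered allele named, and the Pac1-/- group was mice of the same background with a germline loss of Dusp2, so that every cell type of those animals lacked it. Mice were 6 to 8 weeks old and matched for age and sex, and the labels name no challenge. Cells of 4 to 5 mice were mixed for each library, so that each genotype was 1 library and no cell could be traced to a mouse. Cells had been depleted of T, B, NK, myeloid and erythroid cells with magnetic beads and then sorted as Lineage- CD90.2+ ST2+ Sca-1+, and 13000 were loaded per library. A fold change between libraries therefore has no replicate check, and intervals given below are 95% intervals of counting error alone.

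Prostaglandins and leukotrienes are lipid mediators made from arachidonic acid, the former by cyclooxygenases and the latter by 5-lipoxygenase. ILC2s are known to respond to both: prostaglandin D2 acting on CRTH2 and leukotrienes acting on their receptors activate them, whereas prostaglandin E2 and prostacyclin, whose receptors EP2, EP4 and IP couple to Gs and raise cyclic AMP, restrain them. The neuropeptide CGRP, encoded by Calca, also signals through cyclic AMP and is made by ILC2s themselves. Il5 and Il13 encode the cytokines by which these cells drive type 2 inflammation.

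The cells carried the label's markers. All 10 ILC2 markers examined, among them Gata3, Il1rl1 and Il7r, were detected in both libraries, at a summed level of 7298 CPM (UMIs per 1000000 UMIs of the library) in WT and 6577 in Pac1-/- cells. Single markers differed in both directions. Ly6a stood at 100 and 213 CPM and Il7r at 812 and 1081 in WT and Pac1-/- cells. Klrg1 stood at 197 and 131 and Rora at 2265 and 1686. Clusters named ILC2-like by markers held 85.5% of WT and 76.9% of Pac1-/- cells. The naming rule also weighed leading genes, and left unnamed a WT cluster of 462 and a Pac1-/- cluster of 963 cells with all 10 ILC2 markers. Clusters rich in ILC2 markers and not of low depth, whatever their name, held 7666 of 8394 WT and 6487 of 7087 Pac1-/- cells. The WT library held 54579034 UMIs in the cells used (median 4186.5 per cell) and the Pac1-/- library 58338886 (median 5577). The targeted gene Dusp2 had 1419 UMIs in WT and 5 in Pac1-/- cells. Of the barcodes used, 15 were shared by both libraries. Transcripts of other cell types differed between the libraries, with haemoglobin genes at a summed 76.1 CPM in WT and 269 in Pac1-/- cells, T cell markers (7 of 8 detected, Cd8a at 0 in both) at 695 and 954, where Trbc1 and Trbc2 were higher in Pac1-/- cells and Cd3d, Cd3e, Cd3g and Trac lower, and mast cell and basophil markers (5 of 6 and 6 of 6 detected, mostly Cpa3) at 13.4 and 29.3. Epithelial markers (5 of 5 detected) summed to 54.0 and 79.5 CPM, with 15 and 675 UMIs of Sftpc, and macrophage markers (4 of 6 and 5 of 6 detected) to 1.39 and 5.81, with 67 and 327 UMIs of Lyz2. Both of these genes led an unnamed Pac1-/- cluster of 541 cells with a median of 981 UMIs. Eosinophil markers (3 of 5 and 4 of 5 detected, mostly Ccr3) summed to 0.733 CPM in WT and 0.463 in Pac1-/- cells, with Epx at 0 in both. Neutrophil markers (2 of 5 and 3 of 5 detected) summed to 0.183 and 0.103, with S100a8 and Retnlg at 0 in both. The part that cells of other types have in the values below was not tested, beyond the removals reported with them.

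Promoter sequences are shown for 4 receptor genes, of which Ptger4 and Ptgir were lower and Ptger2 and Ltb4r1 higher in Pac1-/- cells (values below), so that the members of each pair can be set side by side. Each run covers 250 bases before to 50 bases after the transcription start in RefSeq (build GRCm38.p6), 5′ to 3′ on the strand of the gene. Capitals mark the GC box GGGCGG on either strand (CCGCCC where it lies on the other strand), a motif to which SP and KLF factors are known to bind. The Ptger4 window lies at chr15:5244138-5244437 on the minus strand, that of Ptgir at chr7:16906240-16906539 on the plus strand, that of Ptger2 at chr14:44987861-44988160 on the plus strand and that of Ltb4r1 at chr14:55765712-55766011 on the plus strand.
Ptger4: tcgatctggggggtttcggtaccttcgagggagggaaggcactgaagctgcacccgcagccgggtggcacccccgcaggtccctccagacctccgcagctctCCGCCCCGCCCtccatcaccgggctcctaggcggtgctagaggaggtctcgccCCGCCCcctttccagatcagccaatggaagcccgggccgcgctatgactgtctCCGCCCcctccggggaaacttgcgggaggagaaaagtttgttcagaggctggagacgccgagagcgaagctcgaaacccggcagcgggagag
Ptgir: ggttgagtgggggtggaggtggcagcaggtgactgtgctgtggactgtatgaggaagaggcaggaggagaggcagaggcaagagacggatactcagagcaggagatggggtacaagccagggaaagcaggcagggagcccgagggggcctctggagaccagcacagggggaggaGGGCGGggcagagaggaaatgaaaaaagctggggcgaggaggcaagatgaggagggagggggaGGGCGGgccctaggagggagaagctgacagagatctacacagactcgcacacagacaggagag
Ptger2: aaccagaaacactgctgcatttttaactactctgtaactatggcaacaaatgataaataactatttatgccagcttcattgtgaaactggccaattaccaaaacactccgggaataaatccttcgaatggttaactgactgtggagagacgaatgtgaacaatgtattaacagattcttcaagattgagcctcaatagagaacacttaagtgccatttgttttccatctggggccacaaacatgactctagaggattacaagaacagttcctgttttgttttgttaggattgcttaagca
Ltb4r1: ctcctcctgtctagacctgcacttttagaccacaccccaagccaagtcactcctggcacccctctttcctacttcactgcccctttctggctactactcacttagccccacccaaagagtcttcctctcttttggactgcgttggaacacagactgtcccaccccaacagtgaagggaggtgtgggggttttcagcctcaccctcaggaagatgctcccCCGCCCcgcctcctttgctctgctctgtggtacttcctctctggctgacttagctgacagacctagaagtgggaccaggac

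The GC box was found 4 times in the Ptger4 window, 2 times in that of Ptgir, 1 time in that of Ltb4r1 and 0 times in that of Ptger2, and 35.7% of the 32851 promoters in the table held at least 1. Ptgdr2 and Alox5 each held 1 and Hpgds none, and 7 of the 10 genes were matched in the table. Ptger1, Cysltr1 and Alox5ap had no entry. Cysltr1, the member called higher below, and Ptger1, called lower, thus have no window, and Ptger2 and Ltb4r1 were not past 1.5-fold. The letters of the full cyclic AMP response element (TGACGTCA, in 1.79% of promoters), of its core (TGACG, in 20.8%), of AP-1 (TGANTCA, in 7.81%) and of a GATA site (AGATAA, in 11.2%), searched on both strands, were in none of the 7 windows. An NFAT core (GGAAAA, in 23.4%) was found 1 time, in that of Ptger2. The core lies within the full element, so these searches overlap. The motifs were chosen after the values had been seen, and a match is a run of letters and not a binding site.

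In the GENCODE annotation of GRCm38, Ptger1 lies at chr8:83666678-83672753, Ptger2 at chr14:44988195-45003820, Ptger4 at chr15:5206661-5244187, Ptgir at chr7:16906490-16910905, Ptgdr2 at chr19:10937160-10942511, Cysltr1 at chrX:106574346-106603679, Ltb4r1 at chr14:55765962-55768494, Alox5 at chr6:116410077-116461178, Alox5ap at chr5:149264767-149288153 and Hpgds at chr6:65117293-65144908. Ptger4 overlaps Ttc33 and Ptgdr2 overlaps Ccdc86 on the opposite strand. Whether the counting used strand was not given in the sources used here.

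The first comparison asked which eicosanoid genes ILC2s carried and how their levels differed without PAC1. Each UMI is 1 captured 3′ end, so that they are not divided by transcript length, and a level compared between genes also depends on how well each 3′ end is captured. In WT cells Ptger4 stood highest, followed by Ptgir, Ltb4r1, Cysltr1, Alox5, Ptger2, Hpgds, Alox5ap, Ptger1 and Ptgdr2, and the counting intervals of no neighbours in this order overlapped down to Ptger1. In Pac1-/- cells Ltb4r1 came before Cysltr1, with Ptger4 next at a level whose interval overlapped that of Cysltr1. Ptgir followed, and the order from Alox5 downwards was that of WT.

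**Figure D1:**
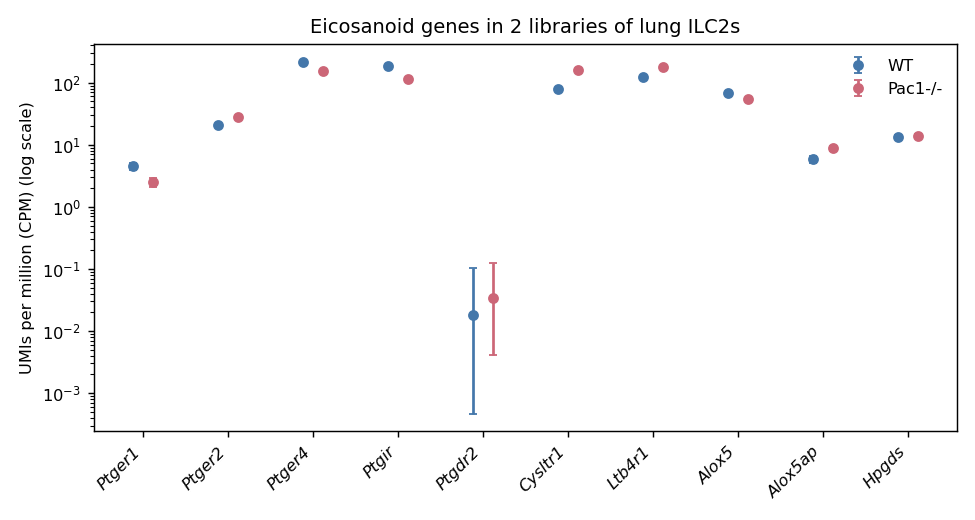
Level of the 10 eicosanoid genes (y axis, CPM on a log scale) in the WT and the Pac1-/- library, with 95% Poisson intervals as bars, many smaller than the point. Ptger4 and Ptgir are lower and Cysltr1 and Ltb4r1 higher in Pac1-/- cells, and Ptgdr2 lies at 1 and 2 UMIs.

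The Gs-coupled receptors did not move as a block. Ptger4, which encodes the prostaglandin E2 receptor EP4, stood at 215 CPM (interval 211 to 219; 11737 UMIs) in WT and at 156 (153 to 159; 9104 UMIs) in Pac1-/- cells. Ptgir, which encodes the prostacyclin receptor IP, stood at 183 (179 to 187) in WT and at 116 (113 to 118) in Pac1-/- cells. Both were lower in the Pac1-/- library, and their intervals did not overlap. Ptger2, which encodes the second Gs-coupled prostaglandin E2 receptor EP2, went the other way, at 20.6 (19.4 to 21.9) in WT and 28.2 (26.8 to 29.6) in Pac1-/- cells, and remained far below Ptger4 in both. Ptger1, which encodes the calcium-mobilizing receptor EP1, was scarce at 4.51 (3.96 to 5.11) in WT and 2.49 (2.10 to 2.92) in Pac1-/- cells, from 246 and 145 UMIs.

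The levels of Cysltr1 and Ltb4r1 were higher in Pac1-/- cells, while that of Cysltr2, a leukotriene receptor gene outside the set, was lower, as given with the other pathway genes. Cysltr1, which encodes the CysLT1 receptor for leukotrienes C4 and D4, stood at 78.7 CPM (76.4 to 81.1; 4295 UMIs) in WT and at 160 (157 to 163; 9346 UMIs) in Pac1-/- cells, a 2.04-fold difference. Ltb4r1, which encodes the leukotriene B4 receptor BLT1, stood at 125 (122 to 128) in WT and at 179 (176 to 183) in Pac1-/- cells. Ptgdr2, which encodes the prostaglandin D2 receptor CRTH2, was barely detected, with 1 UMI among the WT cells and 2 among the Pac1-/- cells and none in a thinned cell. The intervals of its level reached up to 0.102 CPM in WT and 0.124 in Pac1-/- cells and overlapped, so that no difference in this gene was detectable.

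Among the synthesis genes, Alox5, which encodes 5-lipoxygenase, stood at 67.2 CPM (65.0 to 69.4) in WT and 55.5 (53.6 to 57.4) in Pac1-/- cells. Alox5ap, which encodes the protein FLAP that presents arachidonic acid to 5-lipoxygenase, stood at 5.81 (5.19 to 6.48) in WT and 8.83 (8.08 to 9.62) in Pac1-/- cells. Alox5 was thus lower and its partner higher in the Pac1-/- library, and 8 cells in each library had a UMI of both after thinning. Hpgds, which encodes the haematopoietic prostaglandin D synthase, stood at 13.4 (12.4 to 14.4) in WT and 13.8 (12.9 to 14.8) in Pac1-/- cells, within overlapping intervals.

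The levels were then set against all genes. The median of the 12427 genes with at least 50 UMIs over both libraries was itself shifted by 0.19 on the log2 scale towards Pac1-/-, and relative log2 ratios are given against this median. A gene was called when its relative ratio was past 1.5-fold and its interval did not reach 0. Of the 9 members with enough UMIs, 1 was called higher, against 7.72% of all genes, and 3 were called lower, against 12.5%. The member called higher was Cysltr1 at 0.84 (0.79 to 0.89), and those called lower were Ptger1 at -1.05 (-1.35 to -0.74), Ptgir at -0.85 (-0.90 to -0.81) and Ptger4 at -0.65 (-0.69 to -0.61). Scaled to total UMIs alone, Ptger4 stood at -0.46 and was no longer past 1.5-fold. The 5 members not called were Alox5 at -0.47 (-0.53 to -0.40), Hpgds at -0.14 (-0.29 to 0.0041), Ptger2 at 0.26 (0.15 to 0.37), Ltb4r1 at 0.34 (0.29 to 0.38) and Alox5ap at 0.42 (0.21 to 0.62). Cysltr1 lay at percentile 96.7 and Ptger1 at percentile 4.57 of the relative ratios of all genes compared. Intervals lay wholly above the median gene for 4 members, against 32.9% of genes, and wholly below it for 4, against 35.5%, so that at this depth an interval clear of the median was common. The median relative ratio of the 9 members was -0.14.

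**Figure D2:**
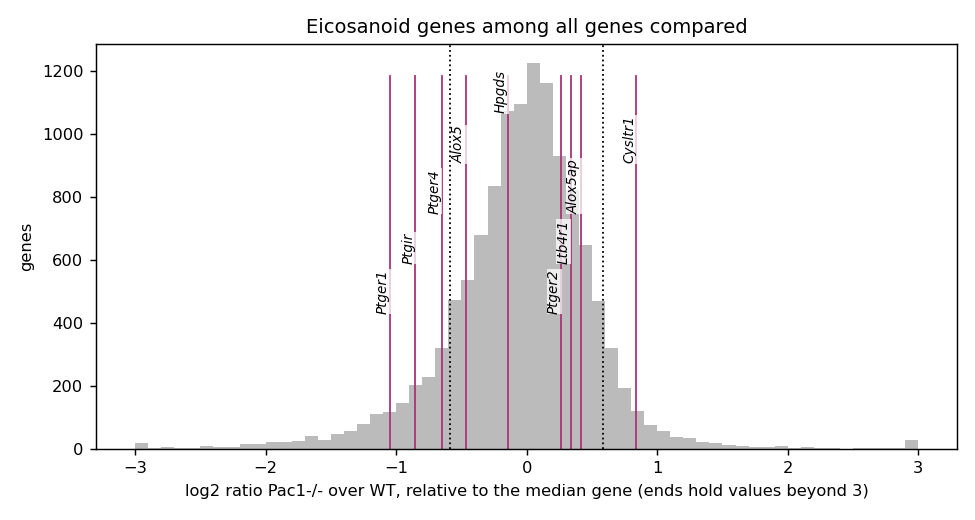
Number of genes (y axis) by log2 ratio of Pac1-/- over WT relative to the median gene (x axis), for the 12427 genes compared, with the 9 members as vertical lines and 1.5-fold as dotted lines. Cysltr1 lies beyond the upper dotted line and Ptger4, Ptgir and Ptger1 beyond the lower one.

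The make-up of the receptor transcripts needs no scaling between libraries, since each share is taken within 1 library. Of the UMIs of the 7 receptor genes, the 3 Gs-coupled receptors Ptger2, Ptger4 and Ptgir took 66.8% (66.3 to 67.3) of 34209 in WT and 46.7% (46.2 to 47.2) of 37450 in Pac1-/- cells. Cysltr1 and Ltb4r1 together took 32.5% (32.0 to 33.0) in WT and 52.9% (52.4 to 53.4) in Pac1-/- cells, so that this pair held the smaller share in WT and the larger share in Pac1-/- cells, Cysltr2 not being counted. In ILC2-like clusters alone, the Gs-coupled share was 67.3% in WT and 47.3% in Pac1-/- cells. The Gs-coupled share also differed by status within a library. Over 8 groups of cells made by Il5, Il13 and Calca it ran from 63.6% (62.7 to 64.6) in WT cells with none of these genes to 71.1% (68.7 to 73.4) in WT cells with Il5 and Il13 but no Calca, and from 43.3% in Pac1-/- cells with none to 54.7% (51.8 to 57.6) in Pac1-/- cells with all of them. The intervals of the lowest and the highest group did not overlap in either library. The ranges of the libraries did not overlap.

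**Figure D3:**
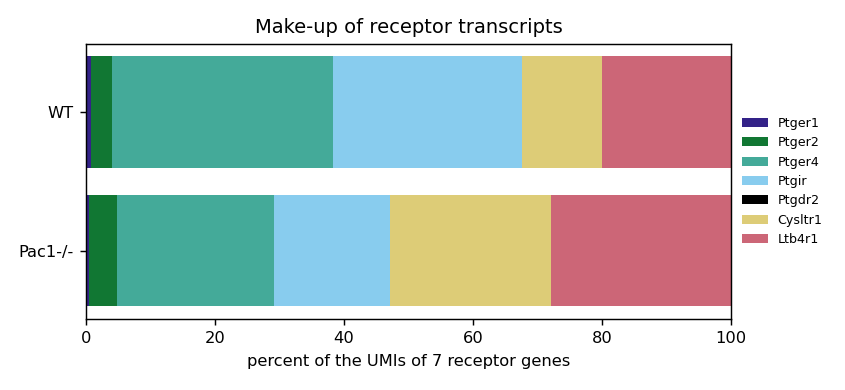
Share of each of 7 receptor genes in their summed UMIs (x axis, percent) in the WT and the Pac1-/- library. Ptger4 takes 34.3% in WT and 24.3% in Pac1-/- cells, Ptgir 29.2% and 18.0%, Cysltr1 12.6% and 25.0%, and Ltb4r1 19.9% and 28.0%.

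Shares of cells with a UMI were taken after each cell of 2000 UMIs or more had been thinned to 2000, which left out 914 WT and 617 Pac1-/- cells. Ptger4 had a UMI in 30.1% (29.0 to 31.1) of 7480 WT cells and 22.2% (21.2 to 23.2) of 6470 Pac1-/- cells. Ptgir had one in 29.2% (28.2 to 30.3) and 19.1% (18.2 to 20.1). Cysltr1 had one in 13.7% (12.9 to 14.5) of WT and 25.1% (24.1 to 26.2) of Pac1-/- cells. The shares of these 3 genes were thus ordered as their levels. Without thinning the shares were 52.1% and 49.1% for Ptger4, 52.5% and 47.0% for Ptgir, and 30.1% and 51.3% for Cysltr1, at unequal depths of the libraries. For Alox5 they were 27.0% and 27.3%, the opposite order to its thinned shares given next. Ltb4r1 had a UMI in 22.8% (21.8 to 23.7) and 28.2% (27.1 to 29.3) of thinned cells, and Alox5 in 11.2% (10.5 to 12.0) and 9.21% (8.52 to 9.94). Ptger2 had one in 3.85% and 5.09%, Hpgds in 2.38% and 2.41%, Alox5ap in 1.14% and 1.38% and Ptger1 in 0.896% and 0.587%, while 0 cells had one of Ptgdr2, which allows up to 0.0493% of WT and 0.0570% of Pac1-/- cells to have a UMI at this depth and sets no limit on the cells that carry the transcript.

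Any of the 7 receptors was seen in 68.1% of WT and 67.4% of Pac1-/- cells. A UMI of Cysltr1 or Ltb4r1 was seen in 33.3% of WT and 45.5% of Pac1-/- cells, and none of Ptger2, Ptger4 and Ptgir in 48.1% of WT and 60.3% of Pac1-/- cells. Cells with all 3 Gs-coupled receptors numbered 27 in WT and 24 in Pac1-/- cells. The median ratio of the share of cells with 1 member beside another to its share without it was 1.02 over 36 pairs in WT and 1.01 over 28 pairs in Pac1-/- cells, where Ptger1 was seen in 38 thinned cells and was left out. These shares were not compared with pairs of other genes. In WT, Ptger4 was seen in 37.2% (31.6 to 43.0) of cells with Ptger2 and 29.8% (28.7 to 30.8) of cells without it, but the intervals overlapped when the pair was taken the other way, Ptger2 being seen in 4.76% (3.92 to 5.72) of cells with Ptger4 and 3.46% (2.98 to 3.99) of those without it. In Pac1-/- cells, Ltb4r1 was seen in 30.9% of cells with Cysltr1 and 27.3% of those without it, and Ptgir in 26.7% of cells with Ptger2 and 18.7% of those without it. Alox5 was seen in 4.56% of Pac1-/- cells with Ptger2 and 9.46% of those without it. The intervals of these 3 Pac1-/- pairs did not overlap in either direction.

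Free RNA in the droplets was examined through B cells, which the sort should have removed. The B-like cluster of WT held 26 cells with a median of 5019 UMIs, and that of Pac1-/- held 23 with a median of 4416. Ptger4 stood there at 101 CPM (56.6 to 167) in WT, below the 215 of the library, and at 112 (63.8 to 181) in Pac1-/- cells, which was not separable from the 156 of the library. Ptgir stood at 67.4 (32.3 to 124) and 41.9 (15.4 to 91.1), below 183 and 116. Cysltr1 stood at 26.9 (7.34 to 69.0) and 69.8 (33.4 to 128), below 78.7 and 160. Ltb4r1 stood at 108 (61.6 to 175) in WT, not separable from 125, and at 90.7 (48.3 to 155) in Pac1-/- cells, below 179. Without thinning, the share of B-like cells with a UMI of Ptger4 was 38.5% in WT and 34.8% in Pac1-/- cells, and that of Cysltr1 3.85% and 17.4%. B cells can themselves carry EP4, so these levels can include their own transcripts. In clusters led by stromal or endothelial markers (20 WT cells with a median of 1311 UMIs and 36 Pac1-/- cells with a median of 1341.5), Cysltr1 stood at 36.5 CPM (4.42 to 132; 2 UMIs) in WT and 141 (75.0 to 241; 13 UMIs in 4 cells) in Pac1-/- cells, neither separable from the library. Ptgir stood there at 86.7 (37.4 to 171) in Pac1-/- cells, not separable from 116, and at 18.2 (0.462 to 102) in WT, below 183. Ptger4 stood at 36.5 (4.42 to 132) and 21.7 (2.62 to 78.3), below the library in both. Ltb4r1 stood at 86.7 (37.4 to 171) in Pac1-/- cells, below 179. Without thinning, 11.1% of these Pac1-/- cells had a UMI of Cysltr1, against 51.5% of the other cells of that library, at unequal depth. The part of free RNA in the Cysltr1 level was not tested further.

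Basophils and mast cells are known for high Alox5ap and Hpgds, and 17 WT and 27 Pac1-/- cells had a UMI of Mcpt8, Ms4a2 or Fcer1a. Alox5ap stood at 77.4 CPM (51.0 to 113; 27 UMIs) in those Pac1-/- cells and at 8.42 in the rest, and up to 11 of its UMIs were in 1 cell. Without those cells its relative log2 ratio was 0.36, against 0.42 with them. In the WT cells so marked Alox5ap had 3 UMIs, and Hpgds had 4 UMIs in WT and 8 in Pac1-/- cells.

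The second comparison asked whether the genes differ between cells that do and do not carry the effector cytokines Il5 and Il13 or the neuropeptide gene Calca. Cells were split by a UMI of the status gene after thinning to 2000 UMIs, and levels were taken from all UMIs of the cells of each status. Il5 was seen in 2823 of 7480 WT cells and 1421 of 6470 Pac1-/- cells, Il13 in 1249 and 679, and Calca in 2671 and 1572. Without thinning, Il5 was seen in 53.1% of WT and 39.5% of Pac1-/- cells, against 37.7% and 22.0% with it. Il13 was seen without thinning in 28.8% and 21.4%, and Calca in 49.3% and 40.1%. Cells counted as without a status gene thus include cells that hold its UMIs, so the ratios by status compare mixed groups. Cells with a status gene had more UMIs, with medians of 5487 against 4170 for Il5 in WT and 7340 against 5626 in Pac1-/- cells. The part of cell depth in these differences was not tested beyond the alternatives given at the end. The median gene was lower in cells with Il5, by 0.15 on the log2 scale in WT and 0.18 in Pac1-/- cells, and ratios are relative to it.

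By Il5, 0 of 9 members were past 1.5-fold in either direction, against 3.67% of genes higher and 1.47% lower in WT and 4.8% higher and 1.84% lower in Pac1-/- cells. By Il13, 0 of 9 were, against 1.28% and 1.5% in WT and 4.29% and 2.16% in Pac1-/- cells. By Calca, 0 of 9 were, against 3.01% and 1.68% in WT and 3.43% and 1.49% in Pac1-/- cells. Between the libraries, 4 members had been past it. Intervals lay above the median gene for 4 members by Il5 in WT (24.2% of genes) and 5 in Pac1-/- cells (24.1%), for 2 by Il13 in WT (15.8%) and 4 in Pac1-/- cells (19.8%), and for 4 by Calca in each (23.2% in WT and 21.4% in Pac1-/- cells). They lay below it for 2 by Il5 in WT (14.5%) and 1 in Pac1-/- cells (14.5%), for 2 by Il13 in WT (7.89%) and 1 in Pac1-/- cells (9.15%), and for 1 by Calca in each (14.2% in WT and 11.5% in Pac1-/- cells).

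**Figure D4:**
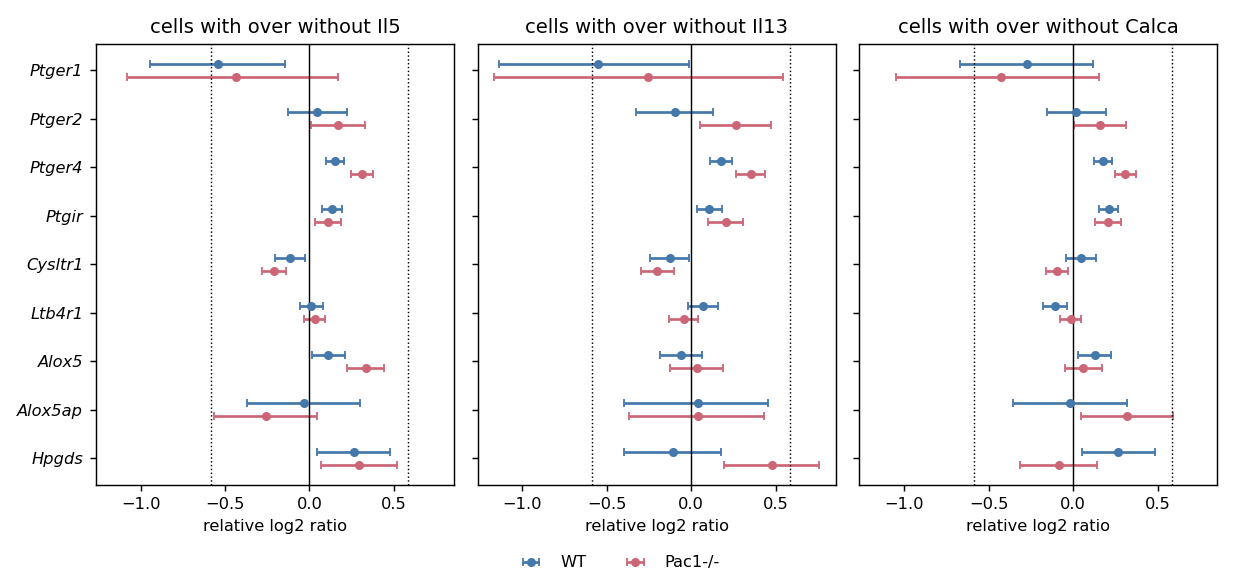
Relative log2 ratio (x axis) of cells with over cells without a UMI of Il5, Il13 or Calca for the 9 members compared, in the WT and the Pac1-/- library, with 95% counting intervals and 1.5-fold as dotted lines. Ptger4 and Ptgir lie above 0 in all 6 comparisons relative to the median gene, though not by Il5 before that scaling (Ptger4 in WT, Ptgir in both), and Cysltr1 lies below 0 by Il5 and Il13 in both libraries.

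The Gs-coupled receptors Ptger4 and Ptgir were slightly higher, relative to the median gene, in cells carrying any of the 3 status genes. In WT, Ptger4 stood at 215 CPM both with and without Il5, a relative log2 ratio of 0.15 (0.10 to 0.21). In Pac1-/- cells it stood at 167 with and 152 without Il5, a ratio of 0.31 (0.25 to 0.38). The relative ratios by Il13 were 0.18 in WT and 0.35 in Pac1-/- cells, and by Calca 0.18 and 0.31. Ptgir had relative ratios of 0.13 and 0.11 by Il5, 0.11 and 0.20 by Il13, and 0.21 and 0.21 by Calca. For both genes each of the 6 intervals lay above 0. Before scaling to the median gene, however, the Ptgir level was lower with than without Il5, at 181 and 183 in WT and 112 and 117 in Pac1-/- cells.

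Cysltr1 was lower in cells with the cytokines. In WT it stood at 70.8 CPM with and 85.4 without Il5, a relative log2 ratio of -0.12 (-0.20 to -0.03), and in Pac1-/- cells at 131 and 172, a ratio of -0.21 (-0.28 to -0.14). By Il13 the ratios were -0.13 (-0.25 to -0.01) and -0.20 (-0.30 to -0.10). By Calca the values were 0.05 (-0.04 to 0.14) in WT and -0.10 (-0.16 to -0.03) in Pac1-/- cells, which lie on opposite sides of 0, although before scaling the WT level was also lower with Calca, at 76.1 against 80.7 CPM. With 0, 1, 2 to 4 and 5 or more thinned Il5 UMIs its level before scaling to the median gene was 85.4, 74.1, 70.7 and 64.2 CPM in WT, and 172, 143, 126 and 107 in Pac1-/- cells, where 284 cells made up the highest class. The median gene fell over the same classes. Relative to it and to cells without Il5, Cysltr1 stood at -0.17 (-0.26 to -0.07), -0.25 (-0.36 to -0.14) and -0.29 (-0.47 to -0.12) in Pac1-/- cells and at -0.14, -0.11 and -0.12 in WT. In neither library did the classes with Il5 differ beyond their intervals. The Ltb4r1 level before scaling also ran lower, from 131 to 111 in WT and from 185 to 139 in Pac1-/- cells, but relative to the median gene it stood at 0.06 (-0.08 to 0.19) and -0.02 (-0.18 to 0.13) in the highest class. The Ptger4 level before scaling showed no such order, at 215, 206, 228 and 204 in WT and 152, 168, 171 and 153 in Pac1-/- cells. Relative to the median gene and to cells without Il5, Ptger4 stood at 0.01, 0.25 and 0.22 in WT and at 0.24, 0.36 and 0.40 in Pac1-/- cells. Before scaling, Ptgir stood by class at 183, 180, 181 and 182 CPM in WT and at 117, 117, 112 and 95.3 in Pac1-/- cells. In the highest class its relative ratio was 0.28 (0.18 to 0.39) in WT. That in Pac1-/- cells was 0.10 (-0.09 to 0.28).

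Other members showed no one pattern. Hpgds had relative ratios by Il5 of 0.26 (0.04 to 0.48) in WT and 0.30 (0.07 to 0.52) in Pac1-/- cells, and by Il13 of -0.11 (-0.40 to 0.17) and 0.48 (0.19 to 0.76). Alox5 had relative ratios by Il5 of 0.11 (0.02 to 0.21) and 0.33 (0.22 to 0.44), but before scaling its WT level was 66.0 CPM with and 68.0 without Il5, the opposite direction, and its share of thinned WT cells was 10.3% with and 11.8% without Il5. Ptger1 had the lowest ratio by Il5 in both, at -0.54 (-0.95 to -0.15) in WT, from 82 and 156 UMIs, and -0.43 (-1.08 to 0.17) in Pac1-/- cells. Ptger2 lay between -0.10 and 0.26 over the 6 comparisons, Ltb4r1 between -0.11 and 0.07, and Alox5ap between -0.25 and 0.32.

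The difference between the libraries was then taken within 8 groups of cells made by Il5, Il13 and Calca together, the smallest of 180 WT and 114 Pac1-/- cells. Relative to the median gene of each group, Ptger4 (-0.70 to -0.32) and Ptgir (-1.02 to -0.47) were lower in Pac1-/- cells in 8 of 8 groups, and Cysltr1 (0.59 to 1.07), Ptger2 (0.14 to 0.71) and Ltb4r1 (0.16 to 0.50) were higher in 8 of 8. Of all genes compared, 15.9% were lower and 14.3% higher in 8 of 8. These are point values. The counting interval lay clear of 0 in every group for Ptger4, Ptgir and Cysltr1, but reached 0 in some groups for Ptger2 and Ltb4r1. For example, Ptger2 stood at 0.14 (-0.04 to 0.33) in cells with no UMI of Il5, Il13 or Calca. Ltb4r1 stood at 0.16 (-0.05 to 0.36) in cells with Il13 alone. Before scaling, the levels of 4 members did not overlap between libraries over the 8 groups, 2 being higher, against 7.31% of genes, and 2 lower, against 4.88%. Ptger4 ran from 206 to 245 CPM in WT and from 145 to 187 in Pac1-/- cells, and Ptgir from 171 to 195 and from 98.2 to 135. Cysltr1 ran from 60.2 to 87.0 in WT and from 105 to 181 in Pac1-/- cells, and Ptger2 from 16.4 to 22.1 and from 23.8 to 33.7. Groups of 1 library share that library and are not replicates. Ltb4r1 ran from 109 to 148 and from 144 to 188, which overlap. Alox5 and Ptger1 were lower in Pac1-/- cells in 7 of 8 groups, Alox5ap higher in 6, and Hpgds lower in 5.

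**Figure D5:**
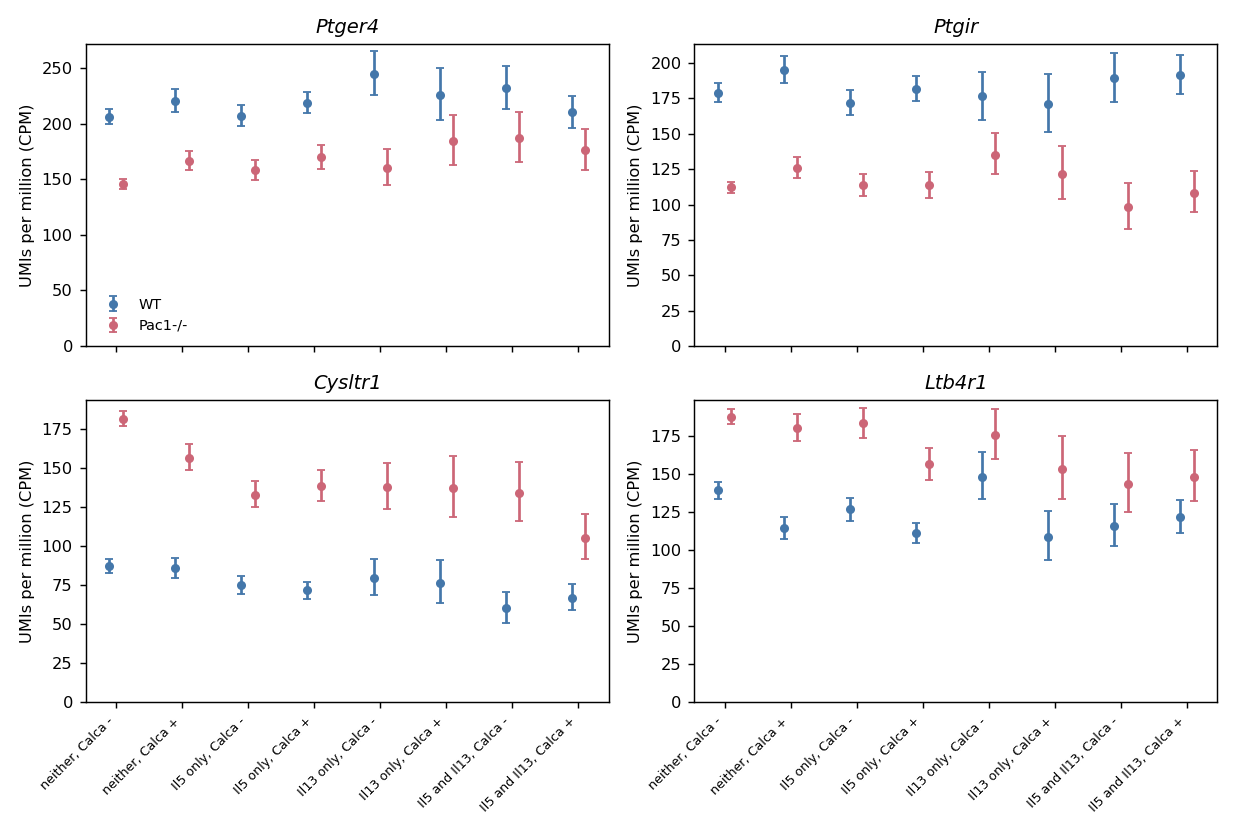
Level of Ptger4, Ptgir, Cysltr1 and Ltb4r1 (y axis, CPM) in 8 groups of cells by Il5, Il13 and Calca status (x axis), in the WT and the Pac1-/- library, with 95% Poisson intervals. Pac1-/- cells lie below WT cells for Ptger4 and Ptgir and above them for Cysltr1 and Ltb4r1 in each group.

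Within cells of 2000 to under 4000, 4000 to under 8000 and 8000 or more UMIs, Ptger4 lay between -0.98 and -0.64, Ptgir between -1.03 and -0.84 and Cysltr1 between 0.77 and 0.93. Ltb4r1 differed by depth: its relative ratio was -0.04 (-0.20 to 0.11) in the shallowest cells, 0.36 in those of 4000 to under 8000 UMIs and 0.35 in deeper cells. Hpgds ran from -0.27 to 0.42 and changed sign.

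Levels were also read over clusters of at least 100 cells, 11 in WT and 10 in Pac1-/- cells, as a description, since the clusters were drawn from the same cells. Cysltr1 was lowest at 43.2 CPM (37.2 to 49.8) in a WT cluster led by Il5, Plac8 and Crem (1005 cells). In Pac1-/- cells it was lowest at 70.5 (59.1 to 83.5) in a cluster led by Il5, Il13 and Crem (315 cells). These intervals overlapped those of clusters not led by Il5, such as 48.8 (40.5 to 58.3) in WT, led by Gm26802, Fam71a and Irf4. In Pac1-/- cells one led by Scgb1a1, Hbb-bs and Hbb-bt stood at 92.1 (81.4 to 104). The Pac1-/- cluster led by Nr4a3, Il5 and Crem stood at 140. Cysltr1 was highest in a WT cluster led by Txnip, Slfn5 and Rbx1, at 131, and in a Pac1-/- cluster led by Tcrg-C1, Scd2 and Ly6a, at 262. Ptgir was also lowest in that Pac1-/- cluster led by Il5, Il13 and Crem, at 71.6, and reached 148 in another. Ltb4r1 reached 405 in a Pac1-/- cluster of 148 cells led by Anxa2, Lgals1 and Actn2, where Ptger2 stood at 4.81. Ptger4 ran from 149 to 268 over the WT clusters and from 92.1 to 198 over the Pac1-/- clusters, ranges that overlap. In WT, Ptger4, Ptgir and Ptger2 were each highest in the cluster of 432 cells led by Il4, Ccl1 and Cxcl1. They stood there at 268 (244 to 294), 239 (216 to 263) and 38.9 (30.2 to 49.4), and Ltb4r1 was lowest at 76.1 (63.6 to 90.3). Each of these intervals overlapped that of another WT cluster.

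The genes whose levels ran most like each member over the 16 groups of both libraries, among 2419 genes, were found by Pearson's r. The groups fall into 2 sets by library, so that r over all groups includes the difference between libraries, and r within WT and within Pac1-/- groups is given in this order after it. For Cysltr1 they were Spcs2 (0.98; 0.79 and 0.94), Gabarapl2 (0.98; 0.86 and 0.89) and Rnaseh2c (0.97; 0.84 and 0.86). For Ltb4r1 they were Gpsm3 (0.96; 0.87 and 0.88), Lamtor2 (0.96; 0.85 and 0.91) and Slc50a1 (0.95; 0.76 and 0.93). For Ptger4 they were Arhgap31 (0.95; 0.50 and 0.87), Flna (0.95; 0.63 and 0.88) and Samsn1 (0.94; 0.19 and 0.91). For Ptgir they were Rpl9-ps6 (0.97; -0.09 and 0.84), Son (0.97; 0.45 and 0.54) and mt-Atp8 (0.97; -0.26 and 0.69). For Alox5 they were Iqgap1 (0.90; 0.49 and 0.93), Adipor1 (0.88; 0.41 and 0.86) and Faah (0.79; 0.37 and 0.67). The values within a library were thus 0.76 or more for each gene named with Cysltr1 and Ltb4r1, and near or below 0 in WT for some of those named with Ptgir. The values are over 8 groups per library and share depth and library.

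Of 52 other genes of the pathway, 26 had enough UMIs to compare, 4 were called higher and 3 lower in Pac1-/- cells by the same rule, with a median relative log2 ratio of 0.11, beside 7.72% and 12.5% of all genes. Cysltr2, which encodes the second receptor for cysteinyl leukotrienes, stood at 72.2 CPM (70.0 to 74.5) in WT and 45.1 (43.4 to 46.8) in Pac1-/- cells, a relative ratio of -0.87 (-0.94 to -0.80) and thus opposite to Cysltr1. Of the UMIs of both genes, Cysltr1 took 52.1% (51.1 to 53.2) of 8238 in WT and 78.0% (77.3 to 78.8) of 11975 in Pac1-/- cells. Over the 8 status groups this share ran from 42.4% to 54.5% in WT and from 67.5% to 79.8% in Pac1-/- cells, which do not overlap. After thinning, Cysltr1 without Cysltr2 was seen in 11.6% of WT and 23.1% of Pac1-/- cells, Cysltr2 without Cysltr1 in 10.3% and 5.89%, and both in 2.11% and 2.09%.

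Ptgs2, which encodes the inducible cyclooxygenase, stood at 37.1 CPM (35.5 to 38.7) in WT and 26.0 (24.7 to 27.3) in Pac1-/- cells, a relative ratio of -0.70 (-0.80 to -0.60). Unlike the members it was past 1.5-fold by status, being higher in cells with Il5 by 0.80 (0.67 to 0.93) in WT and 1.30 (1.15 to 1.45) in Pac1-/- cells, and in cells with Calca by 0.89 and 1.40. By Il13 it was 0.21 (0.05 to 0.37) in WT and 1.70 (1.54 to 1.87) in Pac1-/- cells. Of the pathway genes compared by status, 1 of 19 was called higher and 1 lower by Il5 in WT, beside 3.67% and 1.47% of all genes, and 1 of 23 higher and 2 lower in Pac1-/- cells, beside 4.8% and 1.84%. By Il13 the counts were 0 and 0 in WT, beside 1.28% and 1.5%, and 1 and 1 in Pac1-/- cells, beside 4.29% and 2.16%. By Calca they were 2 and 0 in WT, beside 3.01% and 1.68%, and 1 and 2 in Pac1-/- cells, beside 3.43% and 1.49%. The other genes called between the libraries were scarce, namely Alox8 (73 and 28 UMIs) lower, and Ptgs1 (48 and 103), Hpgd (62 and 164), Ptgr1 (42 and 80) and Tbxa2r (29 and 64) higher. Hpgd, which breaks down prostaglandins, led a Pac1-/- cluster of 12 cells with endothelial markers. Ltc4s, the leukotriene C4 synthase, had 5 and 6 UMIs, Lta4h, the leukotriene A4 hydrolase, stood at 46.4 and 35.4 CPM with a relative ratio of -0.58 (-0.66 to -0.49), and 8 genes, among them the prostaglandin D2 receptor gene Ptgdr and the synthase gene Ptgds, were at 0 in both libraries.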

How the data were processed

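The authors sorted lung ILC2s, made 1 droplet 3′ library per genotype and processed the reads with Cell Ranger (6.1.1 in their processing notes, 4.0.0 in the file header) on mm10. The deposited values were raw UMI counts per gene and barcode, with no normalization. The annotation release was not given in the sources used here.

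Barcodes were kept at 500 or more detected genes and at most 10% mitochondrial UMIs. UMIs were summed over cells and divided by the library total (CPM). With 1 library per genotype no test was possible. Exact Poisson intervals were used for levels, exact conditional binomial intervals for ratios and Clopper-Pearson intervals for shares, all at 95%. Cells are not replicates. A gene entered a comparison with 50 UMIs over both sides and was called past 1.5-fold relative to the median gene. Cells were thinned to 2000 UMIs with a fixed seed. The procedure was tested on simulated data. Pairs of members entered where each was seen in 50 thinned cells. Named genes were the 10 members, pathway genes called, and the 3 genes most like each member at 50 CPM or more. Lta4h, Ltc4s, Ptgdr and Ptgds fall outside this rule and were named after their values were seen. The members and lists were chosen with earlier results of these data known.

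Clusters (2000 variable genes, 30 components, 15 neighbours, Leiden resolution 1) were named by markers, and the naming rule was adjusted 2 times after clusters and library ratios had been seen. They serve for alternatives, for background and for a description of levels by cluster. Doublets were kept, and 730 WT and 538 Pac1-/- cells were removed in 1 alternative (0.8% per 1000 barcodes). Analysis ran in Python 3.11.15 (pandas 2.3.3, numpy 2.4.6, scipy 1.17.1), with clusters from igraph 0.11.9, leidenalg 0.10.2 and scikit-learn 1.9.0 and plots from matplotlib 3.10.9.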

Additional observations from a re-analysis of the deposited data

How the results depend on the processing

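Cell filter, doublets, clusters, scaling and weighting of cells were varied 1 at a time, and 3 depth classes and clusters rich in ILC2 markers were chosen after seeing the data. Between the libraries, 1 member was called higher and 3 lower under 11 of 13 alternatives. With total UMIs, and with total UMIs without mitochondrial, ribosomal protein and haemoglobin genes, 2 were called higher, since Alox5ap passed 1.5-fold at 0.60 and 0.61, and 2 lower, since Ptger4 stood at -0.46 under both. The direction of 7 of 9 members held under all 13 alternatives. That of Ltb4r1 held under 12 (-0.04 in cells of 2000 to under 4000 UMIs) and that of Hpgds under 10 (-0.27 to 0.42). By status, 0 of 54 member values were past 1.5-fold. The count was 1 with cells thinned to 1000 UMIs, with status from all UMIs, with another thinning, with the mean over cells, in ILC2-like clusters and with predicted doublets removed. It was 2 with 2 UMIs asked for a positive status and in cells of at most 2 times the median UMIs, and 3 with total UMIs. These were values of Ptger1 (-0.60 to -1.06), Alox5ap (0.60 by Il13 in WT, -0.85 by Il13 in Pac1-/- cells) and Hpgds (0.66), which rest on few UMIs. The cause was not tested. The share of all genes called under each alternative is not given here, for status or between the libraries. The counts under alternatives are therefore not set against a background. Of 540 member values by status under alternatives, 472 kept their sign. Depth limits Ptger1, Alox5ap, Hpgds and Ptgdr2. No paired analysis was possible because each genotype had 1 library.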
